A study of Homo sapiens with 6 samples.

Results

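Of the 59050 entries in the deposited expression table, 10 long noncoding RNAs (lncRNAs) were followed: MALAT1, NEAT1, MEG3, H19, TUG1, PVT1, LINC-PINT, DANCR, GAS5 and NORAD. They were taken by symbol as well-known lncRNAs that act in the nucleus or are linked to growth control, and each symbol had 1 row. The study used HFF, human foreskin fibroblasts labelled as a cell line, to follow oncogene-induced senescence, a lasting growth arrest set off by an active oncogene. All cells of both groups carried ER:RAS, H-RAS with the G12V change joined to the part of the oestrogen receptor that binds hormone, delivered at about passage 18 in a pLNC vector packaged in HEK293T cells and selected with 200 µg/ml neomycin. The 4-OHT group received 100 nM 4-hydroxytamoxifen, which switches the fusion protein on, and the DMSO group received the solvent, and both were harvested a week later. Each group had 3 libraries. The labels do not say that these came from separate cultures, so a p-value here covers the spread between these libraries alone, which may be technical. The control cells carry the introduced fusion too, and cells without it are not analysed here.

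Long noncoding RNAs are transcribed and spliced much like messenger RNAs but are not known to work through an encoded protein. NEAT1 is the scaffold around which paraspeckles, a kind of nuclear body, assemble, and MALAT1 collects in nuclear speckles, where splicing factors are stored. GAS5 carries small nucleolar RNAs (snoRNAs) in its introns and builds up when growth stops in several cell types. MEG3 and H19 are imprinted RNAs, expressed from the maternal chromosome, while NORAD is a cytoplasmic RNA that binds PUMILIO proteins, which repress the mRNAs they bind. TUG1 and LINC-PINT have been linked to p53 and to Polycomb repressive complex 2 (PRC2), PVT1 lies beside the MYC gene, and DANCR was named for opposing differentiation.

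Of the 9 members that were abundant enough to test, 4 fell in the 4-OHT libraries (NEAT1, GAS5, MEG3 and DANCR) and 0 rose, by limma with Benjamini-Hochberg adjustment over all 15272 genes tested and a threshold of 0.05. At an unadjusted p under 0.05 there was 1 higher member, MALAT1. MALAT1, TUG1, PVT1, LINC-PINT and NORAD did not pass, and H19 was too low to test. Over all tested genes 49.6% were called, 29.9% lower and 19.8% higher, so a share of 44.4% of members called is near the background. The median log2 fold change (4-OHT minus DMSO, on log2(TPM + 1), a scale that understates the change of low genes) was -0.09 for the 9 members and -0.09 for all tested genes. The groups of 5 members did not overlap, the 4 that fell and TUG1, where 59% of all tested genes had such groups (35.2% with 4-OHT lower and 23.8% with 4-OHT higher). In bulk RNA, fewer cells of a type and less RNA per cell cannot be told apart.

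**Figure D1:**
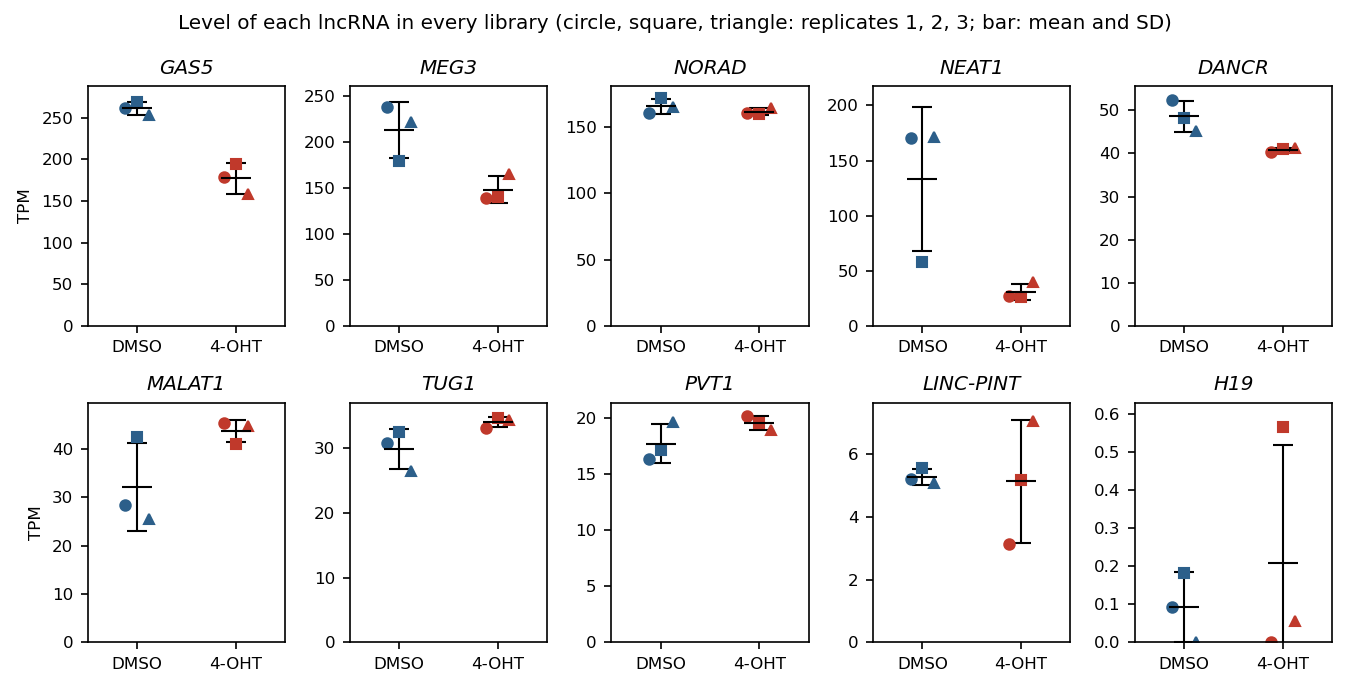
Level of each of the 10 lncRNAs (vertical axis, TPM) in the 3 DMSO and the 3 4-OHT libraries, with the mean and SD of each group; circles, squares and triangles are replicates 1, 2 and 3. GAS5, MEG3, NEAT1 and DANCR have every 4-OHT library below every DMSO library, DMSO replicate 2 lies away from the other DMSO libraries in NEAT1 (58.3 TPM) and MALAT1 (42.4 TPM), and H19 stays under 0.6 TPM.

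The scale between libraries bears on these counts. No scaling between libraries is recorded beyond TPM, in which each library is already set against its own total. Ratio scaling here means scaling by the median of ratios to each gene's geometric mean. It moved the median log2 fold change of all tested genes from -0.094 to 0.0133. Quantile normalization moved that median to 0.0097. Ratio scaling called 50% of genes, 26.5% higher and 23.5% lower, and quantile normalization called 47.5%, 23.7% higher and 23.8% lower. NEAT1, GAS5 and MEG3 stayed past the threshold in the same direction under both scalings, whereas DANCR stayed past it only under quantile normalization. After ratio scaling 3 members (MALAT1, TUG1 and PVT1) passed as higher and 3 as lower. Without DMSO replicate 2, 4 members fell and 1 (MALAT1) rose, where 43.6% of all tested genes were called, 18% higher and 25.7% lower.

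The libraries of a group were close: over the 11055 genes of at least 5 TPM the median coefficient of variation was 6.53% in DMSO and 6.76% in 4-OHT. HRAS, the transgene's coding sequence, was read at 1281 ± 51.1 TPM in 4-OHT and 935 ± 24.7 in DMSO (SD, n = 3 each, as throughout), and ESR1, which also counts the receptor part of the fusion, at 72.4 ± 1.61 and 47.5 ± 1.76 TPM. Both rose (log2 fold change 0.45 and 0.60). All 10 fibroblast markers were present, and their summed level was 19101 to 19509 TPM in 4-OHT and 20227 to 20826 in DMSO. Within that sum PDGFRB, THY1 and VIM rose, VIM from 10399 ± 262 to 11537 ± 136 TPM. COL1A1, COL1A2, COL3A1, PDGFRA, DCN, LUM and FAP fell, with COL3A1, PDGFRA, DCN and FAP at log2 fold changes of -0.91, -0.92, -1.04 and -1.01. Of the markers of other cell types, 1 of 6 for keratinocytes, 2 of 5 for immune cells, 1 of 4 for melanocytes, 2 of 4 for smooth muscle and pericytes and 0 of 4 for endothelium had a mean of at least 1 TPM. Their summed levels were 32.0 to 42.6 TPM in 4-OHT and 36.0 to 51.0 in DMSO for keratinocytes, 59.4 to 67.2 and 60.1 to 90.5 for immune cells, 0.647 to 1.01 and 1.39 to 2.64 for melanocytes, 193 to 194 and 199 to 218 for smooth muscle and pericytes, and 0.898 to 1.48 and 0.405 to 0.639 for endothelium. Within the smooth muscle and pericyte sum RGS5 rose from 3.30 ± 0.514 to 24.6 ± 3.99 TPM, while ACTA2 fell from 202 ± 10.6 to 169 ± 4.05 TPM. KRT1, TYR and DCT were at 0 in every library. Markers of HEK293 cells summed to 8.92 to 9.43 TPM in 4-OHT and 2.17 to 2.65 TPM in DMSO, with 2 of 4 at a mean of at least 1 TPM, carried by NEFM in 4-OHT and SOX11 in DMSO. The part of any of these cells in a result was not tested.

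The order of the levels differed between the groups in its upper places. In DMSO it ran GAS5, MEG3, NORAD, NEAT1, DANCR, MALAT1, TUG1, PVT1, LINC-PINT and H19, and the libraries of NORAD and NEAT1 overlapped, as did those of MALAT1 and TUG1. In 4-OHT it ran GAS5, NORAD, MEG3, MALAT1, DANCR, TUG1, NEAT1, PVT1, LINC-PINT and H19, and the neighbouring pairs GAS5 with NORAD, NORAD with MEG3, MALAT1 with DANCR, and TUG1 with NEAT1 overlapped. NEAT1 moved from the fourth place to the seventh. Together the 10 RNAs made up 906 ± 73.2 TPM in DMSO and 661 ± 13.3 TPM in 4-OHT.

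NEAT1 is an RNA of 1 exon read from the plus strand of chromosome 11, at 65422774 to 65445540 in GRCh38 (GENCODE 29), with 8 annotated transcripts from 512 to 22743 nt. MALAT1 lies further along the same strand at 65497688 to 65506516, also with 1 exon in its longest transcript of 8708 nt. MALAT1 and the long form of NEAT1 (22743 nt) are known to end not in a poly(A) tail but in a triple helix. In it U-rich stretches fold back onto an A-rich tract, after which the transcript is cut. These tracts are shown because the 2 RNAs share them. They are read from the GENCODE 29 transcripts, 5′ to 3′ with T for U, at chr11:65445449-65445540 for NEAT1 and chr11:65506027-65506116 for MALAT1, both on the plus strand, and the capitals mark TTTCTTTT, TTTGCTTT and AAAGCAAA, searched for on the transcript strand only.
NEAT1 3 prime end: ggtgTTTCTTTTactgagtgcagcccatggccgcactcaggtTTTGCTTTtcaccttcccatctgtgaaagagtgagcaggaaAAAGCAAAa
MALAT1 3 prime end: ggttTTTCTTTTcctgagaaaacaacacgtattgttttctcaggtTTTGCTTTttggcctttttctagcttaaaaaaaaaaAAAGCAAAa
The 3 motifs stood in this order, with 10 to 60 nt between neighbours, in transcripts of 2 of 57133 genes of GENCODE 29, which were MALAT1 and NEAT1. The motifs and spacing were chosen from these ends. The NEAT1 stretch ends at the last base of its transcript (22743), whereas the MALAT1 stretch is bases 8266 to 8355 of a transcript annotated to base 8708, so the annotation runs on past the tract.

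NEAT1 had the largest change of the 9 tested members. In the 4-OHT libraries it stood at 27.2, 26.4 and 39.5 TPM. In the DMSO libraries it stood at 171, 58.3 and 171 TPM. Every 4-OHT library lay below every DMSO library, with DMSO replicate 2 between the 4-OHT libraries and the other DMSO libraries. The means were 31.0 ± 7.33 TPM in 4-OHT and 133 ± 65.1 in DMSO, a 4.30-fold lower level. The log2 fold change was -1.94 (SE 0.41, 95% interval -2.91 to -0.97, adjusted p = 0.00674 by limma). Leaving out DMSO replicate 2 gave -2.45, and the call was lost when genes of any level were tested (adjusted p = 0.0520).

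The DMSO spread of NEAT1, a coefficient of variation of 48.8%, was greater than that of 98.7% of the 11055 genes of at least 5 TPM. DMSO replicate 2 did not stand apart as a library in the following measure. It counted genes of at least 5 TPM that lay more than 1 log2 unit from the mean of the other DMSO libraries. Those other libraries had to be within 0.3 of each other. The count was 43 genes for DMSO replicate 2, 32 for DMSO replicate 1 and 51 for DMSO replicate 3. NEAT1 was the member among those 43 genes. The TPM of a gene add all its transcripts, so the short and the long form of NEAT1 cannot be told apart here. The entry of the microRNA precursor MIR612, which lies inside the last part of the long form on the same strand, had 3.98, 2.50 and 0 TPM in 4-OHT and 5.06, 2.03 and 8.69 TPM in DMSO, and did not pass (adjusted p = 0.198, limma). Reads of an entry that lies within another gene could be counted for either.

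MALAT1 moved in the other direction from NEAT1 without passing the test. It stood at 45.4, 41.0 and 44.6 TPM in 4-OHT and at 28.3, 42.4 and 25.5 TPM in DMSO. The 4-OHT libraries were above DMSO replicates 1 and 3, while DMSO replicate 2 lay among the 4-OHT libraries. Its log2 fold change was 0.47 (SE 0.17, 95% interval 0.06 to 0.88, adjusted p = 0.0609 by limma). MALAT1 passed in 2 of the 14 alternatives, when DMSO replicate 2 was left out (0.68, adjusted p = 0.00120) and after ratio scaling (0.58, adjusted p = 0.0269), and its estimate was above 0 in all 14. DMSO replicate 2 was thus the lowest DMSO library for NEAT1 and the highest for MALAT1.

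FRMD8, the protein-coding gene 9248 nt before NEAT1, rose from 22.7 ± 1.55 to 35.7 ± 1.09 TPM (log2 fold change 0.63, adjusted p = 0.000292, limma). NEAT1 thus fell beside a gene that rose.

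Paraspeckle proteins bind NEAT1 or gather in the bodies it builds. Of 31 listed, all tested, 18 fell and 2 rose, with a median of -0.33 against -0.09 for all tested genes. Over all tested genes 29.9% were lower and 19.8% higher. SFPQ, which binds NEAT1 together with NONO as a core protein of the paraspeckle, fell from 245 ± 6.98 to 176 ± 4.38 TPM (log2 fold change -0.48), and NONO fell from 384 ± 4.68 to 323 ± 10.7 TPM (-0.25). HNRNPA1, an RNA-binding protein and splicing regulator, fell from 868 ± 82.9 to 443 ± 35.5 TPM (-0.97). HNRNPH3, another of the heterogeneous nuclear ribonucleoproteins, fell from 251 ± 16.0 to 139 ± 5.01 TPM (-0.85). PSPC1, the third protein of the SFPQ and NONO family (named with its values known), had 40.7 TPM in 4-OHT and 42.1 TPM in DMSO, and did not pass (adjusted p = 0.641). The count that rose depended on the processing: it was 5 after ratio scaling, 3 without 4-OHT replicate 1, and 0 without 4-OHT replicate 3 or without any of the 3 DMSO replicates.

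Nuclear speckle proteins, of the compartment where MALAT1 collects, showed 16 lower and 2 higher among 31 tested of 32 listed, with a median of -0.23. The shares over all tested genes were 29.9% lower and 19.8% higher. After ratio scaling 9 fell and 3 rose, with a median of -0.11, where 23.5% of all tested genes were lower and 26.5% higher. SRSF5, a serine- and arginine-rich splicing factor, rose from 137 ± 36.0 to 244 ± 10.2 TPM (log2 fold change 0.86). TRA2A, another splicing regulator, fell from 176 ± 7.75 to 108 ± 8.36 TPM (-0.70), and CLK2, a kinase of such factors, fell from 47.1 ± 1.43 to 29.6 ± 3.48 TPM (-0.66). The speckle core proteins SON and SRRM2 (named with their values known) differed from each other: SON did not pass (0.04, adjusted p = 0.519), and SRRM2 fell by 0.26 on the log2 scale.

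GAS5 had the smallest adjusted p of the members and the highest mean of the 10 in both groups. It stood at 178, 195 and 158 TPM in 4-OHT and at 261, 269 and 253 TPM in DMSO. All 3 4-OHT libraries were below all 3 DMSO libraries. The mean was 177 ± 18.55 TPM in 4-OHT and 261 ± 7.64 TPM in DMSO, 1.47-fold lower in 4-OHT. GAS5 had a log2 fold change of -0.56 (SE 0.08, 95% interval -0.74 to -0.38, adjusted p = 0.000806, limma), and GAS5 stayed past the threshold in all 14 alternatives, with adjusted p between 0.000556 and 0.00936.

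GAS5 lies on the minus strand of chromosome 1 at 173863900 to 173868882 and has 29 transcripts in GENCODE 29, of 242 to 1698 nt. It belongs to the RNAs that begin with a C followed by a run of pyrimidines, the 5′ terminal oligopyrimidine tract, which ties an RNA's translation to nutrient and growth signals. Because such an RNA is read by ribosomes but codes for no long protein, nonsense-mediated decay is known to clear it. The first 30 bases of its longest transcript are shown for this start, with CTTTT in capitals (chr1:173867960-173867989, minus strand, GRCh38, T for U).
GAS5 start: CTTTTcgaggtaggagtcgactcctgtgag
Of the 29 GAS5 transcripts 6 began with CTTTT, searched for at the first base on the transcript strand. Over 57133 genes in the GENCODE 29 transcripts 0.693% had a transcript with that start, and 3 of 24 snoRNA hosts found by symbol did (SNHG5, SNHG16 and SNHG19).

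Other lncRNA genes that host snoRNAs were read beside GAS5. Of 27 listed, 25 were tested, 12 fell and 3 rose, with a median of -0.42 (all tested genes: 29.9% lower, 19.8% higher). With ratio scaling the counts were also 12 and 3, with a median of -0.31 (all tested genes: 23.5% lower, 26.5% higher). SNHG7 fell from 51.2 ± 1.499 to 20.9 ± 2.65 TPM, and its log2 fold change was -1.26 (adjusted p = 3.68e-05, limma). SNHG4 rose from 9.24 ± 0.674 to 20.4 ± 1.49 TPM (1.07, adjusted p = 7.72e-05), and SNHG14, the long host transcript of the imprinted Prader-Willi region, rose from 13.9 ± 0.987 to 26.6 ± 1.43 TPM (0.89, adjusted p = 0.000106). Of the 3 hosts with a CTTTT start (read after their values were seen), SNHG19 fell (-0.68), SNHG16 rose (0.25) and SNHG5 did not pass (0.12, adjusted p = 0.436). The hosts thus moved in both directions.

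Among nonsense-mediated decay factors 5 of 20 fell and 3 rose, with a median of -0.01 (all tested genes: 29.9% lower, 19.8% higher). Ratio scaling gave 4 lower and 8 higher (all tested genes: 23.5% lower, 26.5% higher). Quantile normalization gave 6 lower and 6 higher (all tested genes: 23.8% lower, 23.7% higher). The 3 that rose were ETF1 (log2 fold change 0.43), SMG5 (0.31) and SMG8 (0.30), named after their values were seen. SMG9, a regulator of the kinase SMG1, fell from 22.9 ± 1.10 to 11.9 ± 1.15 TPM (log2 fold change -0.89). UPF3B, which links the exon junction complex to UPF2, fell from 22.6 ± 1.78 to 14.3 ± 0.677 TPM (-0.62), and MAGOHB, a protein of that complex, fell from 23.2 ± 2.47 to 15.2 ± 1.41 TPM (-0.58). UPF1, the central helicase (named with its values known), had 42.4 TPM in 4-OHT and 46.4 TPM in DMSO, and did not pass (-0.13, adjusted p = 0.0931).

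GAS5-AS1, which overlaps GAS5 on the other strand, stood at 0.257, 0.988 and 0.627 TPM in 4-OHT and at 1.61, 1.56 and 1.44 TPM in DMSO. Its call as lower (-0.67, adjusted p = 0.0359) was lost in 8 of the 14 alternatives. The strand setting of the counting is not given in the sources used here, so reads of overlapping genes on opposite strands cannot be told apart. ZBTB37, which overlaps GAS5 on the other strand, had 0.770 ± 0.0932 TPM in 4-OHT and 1.01 ± 0.0869 TPM in DMSO and was below the filter.

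MEG3 lies on the plus strand of chromosome 14 at 100779410 to 100861031 and has 48 transcripts, the longest of 12990 nt. It stood at 139, 140.2 and 165 TPM in 4-OHT and at 237, 179 and 221 TPM in DMSO. All 4-OHT libraries were lower than all DMSO libraries, with DMSO replicate 2 the lowest of its group. The means were 148 ± 14.7 and 212 ± 30.2 TPM, 1.44-fold lower in 4-OHT. On the log2 scale MEG3 fell by 0.51 (SE 0.12, 95% interval -0.79 to -0.24, adjusted p = 0.00850, limma). Of the alternatives, only the one that tested genes of any level lost the call (adjusted p = 0.0553).

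The imprinted domain of MEG3 holds other RNAs of the maternal chromosome and protein-coding genes of the paternal one. MEG8, a lncRNA of the maternal chromosome, fell from 14.7 ± 1.85 to 9.90 ± 1.43 TPM (log2 fold change -0.53, adjusted p = 0.0136, limma), and MEG9 did not pass (-0.68, adjusted p = 0.0542). Both were named after their values were seen. The flanking paternal genes were near 0: DLK1, a transmembrane ligand, averaged 0.0313 TPM in DMSO, and RTL1, derived from a retrotransposon, averaged 0.0589 TPM. The microRNA precursor MIR770 inside MEG3 was at 0.0785 TPM in DMSO and 0.111 TPM in 4-OHT, and MIR2392 was listed at 0 in all 6 libraries.

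H19, on the minus strand of chromosome 11 at 1995176 to 2001470, was listed at 0, 0.567 and 0.0563 TPM in 4-OHT and at 0.0935, 0.183 and 0 TPM in DMSO. The groups overlapped, and no library reached 1 TPM, so H19 entered no test here except the one with no filter, where it did not pass (log2 fold change 0.12, adjusted p = 0.733, limma). Its microRNA precursor MIR675 was listed at 0 in every library. IGF2, a growth factor expressed from the paternal chromosome and controlled with H19 by a shared imprinting centre, stood at 21.9, 24.4 and 22.2 TPM in 4-OHT and at 8.91, 4.19 and 5.21 TPM in DMSO. It rose 3.74-fold (log2 fold change 1.80, adjusted p = 0.000542). On the other side of H19, MRPL23, a protein of the mitochondrial ribosome, fell from 104 ± 7.17 to 56.5 ± 4.30 TPM (-0.87, adjusted p = 8.84e-05).

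The wider list of imprinted genes, with genes co-expressed with them, had 14 of 20 tested, of which 8 fell and 2 rose, with a median of -0.35. Beside this, 29.9% of all tested genes were lower and 19.8% higher. SLC38A4, an amino acid transporter, fell from 11.96 ± 0.671 to 2.99 ± 0.415 TPM (log2 fold change -1.70). CDKN1C, a cyclin-dependent kinase inhibitor, fell from 2.70 ± 1.57 to 0.515 ± 0.171 TPM (-1.19), a call lost in 5 of the 14 alternatives. IGF2 had the largest absolute change among those past the threshold in this list.

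DANCR, on the plus strand of chromosome 4 at 52712404 to 52720351, is a short spliced RNA of 336 to 904 nt over 5 transcripts and hosts the snoRNA SNORA26. It stood at 40.4, 41.0 and 41.1 TPM in 4-OHT and at 52.4, 48.3 and 45.2 TPM in DMSO. The groups did not overlap, and the 4-OHT libraries lay closer together than the DMSO libraries. The means were 40.8 ± 0.392 and 48.6 ± 3.58 TPM, 1.19-fold lower in 4-OHT. This was a log2 fold change of -0.24 (SE 0.07, adjusted p = 0.0179, limma). The call was lost after ratio scaling (-0.13, adjusted p = 0.151) and when 4-OHT replicate 1 was left out (adjusted p = 0.0510). USP46, the deubiquitinase gene on one side, did not pass (0.52, adjusted p = 0.0785), and ERVMER34-1 on the other side averaged 0.0726 TPM in DMSO.

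Promoter windows of DANCR and MEG3 are shown because each held a motif that few windows have in that form. They were picked for this after the search. The CCAAT box, cAMP response element, GC box, E-box and TATA box were searched for in 14 windows of members. GAS5, which fell as DANCR and MEG3 did, had 3 CCAAT matches and 0 of the cAMP response element. TUG1, which did not pass, had 2 CCAAT matches. The windows run from 250 bases before to 50 bases after the start, on the plus strand, from RefSeq on GRCh38.p14, at chr4:52712144-52712443 for DANCR and chr14:100825858-100826157 for MEG3. Capitals mark CCAAT or its reverse complement ATTGG in DANCR and the cAMP response element TGACGTCA, which reads the same on both strands, in MEG3; these 2 motifs do not overlap in letters.
DANCR promoter: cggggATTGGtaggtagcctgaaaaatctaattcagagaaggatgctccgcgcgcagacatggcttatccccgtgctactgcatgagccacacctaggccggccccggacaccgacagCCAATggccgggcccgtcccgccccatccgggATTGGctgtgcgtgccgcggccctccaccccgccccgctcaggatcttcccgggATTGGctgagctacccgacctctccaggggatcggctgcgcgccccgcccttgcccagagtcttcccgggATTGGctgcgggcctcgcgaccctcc
MEG3 promoter: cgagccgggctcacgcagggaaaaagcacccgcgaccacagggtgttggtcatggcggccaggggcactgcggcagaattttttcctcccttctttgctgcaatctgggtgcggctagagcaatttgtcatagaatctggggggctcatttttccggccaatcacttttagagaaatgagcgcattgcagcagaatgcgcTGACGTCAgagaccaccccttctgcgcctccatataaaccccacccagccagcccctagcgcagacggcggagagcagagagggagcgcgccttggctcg
DANCR had 5 CCAAT matches on the 2 strands, first bases at -245, -132, -100, -46 and 25 from the start. At least 1 match stood in 34.6% of 35116 windows and at least 5, the count of DANCR itself, in 0.359%. MEG3 had TGACGTCA at -50 to -43, and 1.85% of windows had it. A match is a description of the letters and not a site of binding, and its part in the level of an RNA was not tested. RefSeq windows were found for 8 of the 10 members.

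**Figure D2:**
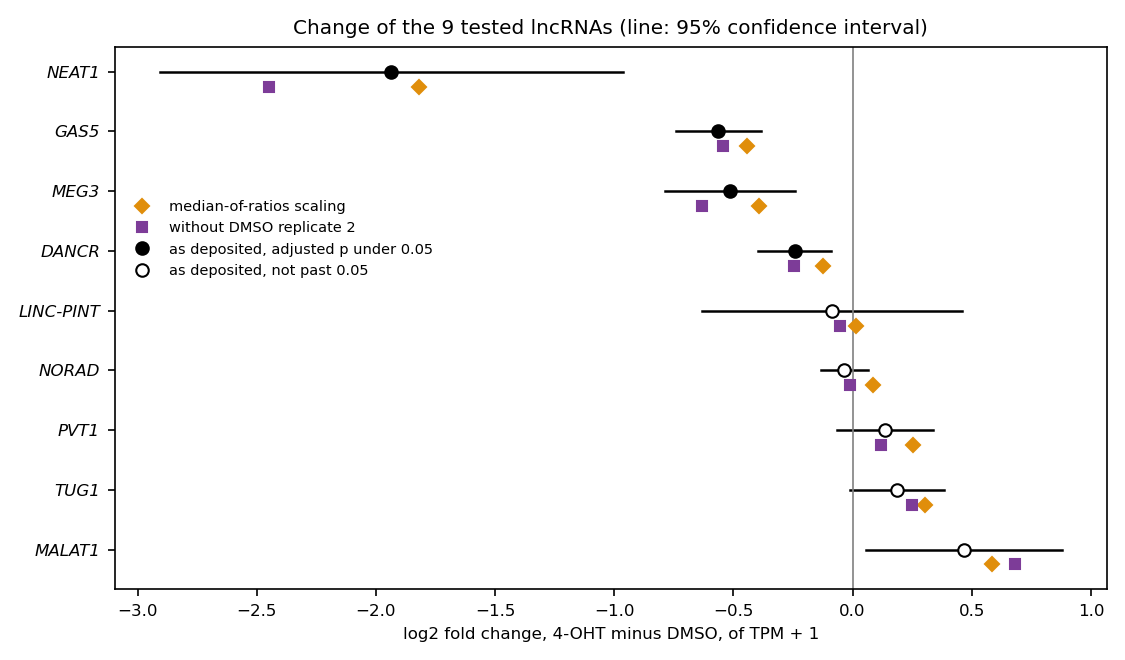
Log2 fold change of TPM + 1 (horizontal axis, 4-OHT minus DMSO) of the 9 tested lncRNAs, with the 95% confidence interval as a line; filled circles passed an adjusted p of 0.05, diamonds are the value after ratio scaling (marked median-of-ratios scaling) and squares that without DMSO replicate 2. NEAT1 lies at -1.94 as deposited, at -1.82 after ratio scaling and at -2.45 without DMSO replicate 2. GAS5, MEG3 and DANCR lie to the left of 0 under all 3, and MALAT1, TUG1 and PVT1 lie to the right under all 3.

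TUG1, on the plus strand of chromosome 22 at 30969245 to 30979395, shares its start region with MORC2, whose gene begins 946 nt away on the other strand. TUG1 stood at 33.0, 34.6 and 34.3 TPM in 4-OHT and at 30.7, 32.4 and 26.4 TPM in DMSO. Its 4-OHT libraries all lay above its DMSO libraries, by less than the test required. Its log2 fold change was 0.19 (SE 0.08, 95% interval -0.01 to 0.38, adjusted p = 0.106, limma), and it passed only after ratio scaling (0.30, adjusted p = 0.0187). MORC2, a chromatin ATPase, did not pass (-0.04, adjusted p = 0.734), and SMTN, a smooth muscle cytoskeletal protein on the other side, rose from 95.4 ± 5.49 to 143 ± 2.83 TPM (0.58, adjusted p = 0.000117).

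PVT1 lies 53098 nt beyond MYC on chromosome 8. It stood at 20.1, 19.6 and 18.9 TPM in 4-OHT and at 16.3, 17.2 and 19.6 TPM in DMSO. The groups overlapped through DMSO replicate 3. The log2 fold change was 0.14 (SE 0.09, 95% interval -0.06 to 0.34, adjusted p = 0.222, limma), and it passed only after ratio scaling (0.25, adjusted p = 0.0445). MYC, the growth-promoting transcription factor, stood at 43.5, 48.8 and 57.9 TPM in 4-OHT and at 31.1, 29.7 and 36.3 TPM in DMSO, and rose (0.61, adjusted p = 0.00465). The difference between PVT1 and MYC was not tested. Entries of microRNA precursors within PVT1 (MIR1204 to MIR1207) were below 1 TPM on average and were not tested.

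LINC-PINT is a p53-induced RNA on the minus strand of chromosome 7. GENCODE 29 gives the symbol to 2 genes, at 130876809 to 130913310 and at 130938963 to 131110176, while the table has 1 row. It stood at 3.16, 5.19 and 7.07 TPM in 4-OHT and at 5.21, 5.57 and 5.09 TPM in DMSO. The DMSO libraries were close together, and the 4-OHT libraries spread on both sides of them, with a coefficient of variation of 38.1%. The log2 fold change was -0.09 (SE 0.23, 95% interval -0.63 to 0.46, adjusted p = 0.786, limma), and its sign turned in 3 of the 14 alternatives, none of which passed. MKLN1, whose start overlaps that of LINC-PINT on the opposite strand, rose from 19.8 ± 1.60 to 37.8 ± 8.47 TPM (0.88, adjusted p = 0.00386). PODXL, a membrane sialomucin on the same side, rose from 7.12 ± 1.69 to 11.9 ± 0.958 TPM (0.69, adjusted p = 0.00914).

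Direct p53 targets were read beside these p53-linked RNAs: 14 of 26 rose and 5 fell, with a median of 0.22. Among all tested genes 19.8% were higher and 29.9% lower. When DMSO replicate 2 or 3 was left out 3 fell. CDKN1A, the p21 cell cycle inhibitor, rose from 679 ± 15.7 to 1659 ± 57.1 TPM (log2 fold change 1.29). RRM2B, a ribonucleotide reductase subunit, rose from 40.2 ± 3.40 to 104 ± 5.53 TPM (1.36), and PLK3, a stress-activated kinase, rose from 35.3 ± 3.59 to 89.9 ± 1.90 TPM (1.33). TUG1 and LINC-PINT did not pass in the same libraries.

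Of PRC2 subunits, the histone H3 lysine methyltransferase complex with which several of these RNAs have been linked, 7 of 12 tested fell and 1 rose, with a median of -0.24. Over all tested genes the shares were 29.9% lower and 19.8% higher. After ratio scaling 4 fell and 2 rose (all tested genes: 23.5% lower, 26.5% higher), and 2 also rose without 4-OHT replicate 2. EZH2, the main catalytic subunit, fell from 32.3 ± 1.40 to 6.81 ± 0.720 TPM (log2 fold change -2.10, adjusted p = 3.33e-06, limma). PHF19, a Polycomb-like accessory protein, fell from 63.4 ± 3.09 to 22.6 ± 2.27 TPM (-1.45), and RBBP7, a histone-binding subunit, fell from 146 ± 12.6 to 85.3 ± 5.51 TPM (-0.77). JARID2, an accessory subunit, was the 1 that rose (0.72, adjusted p = 0.00174) and was named after its values were seen.

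**Figure D3:**
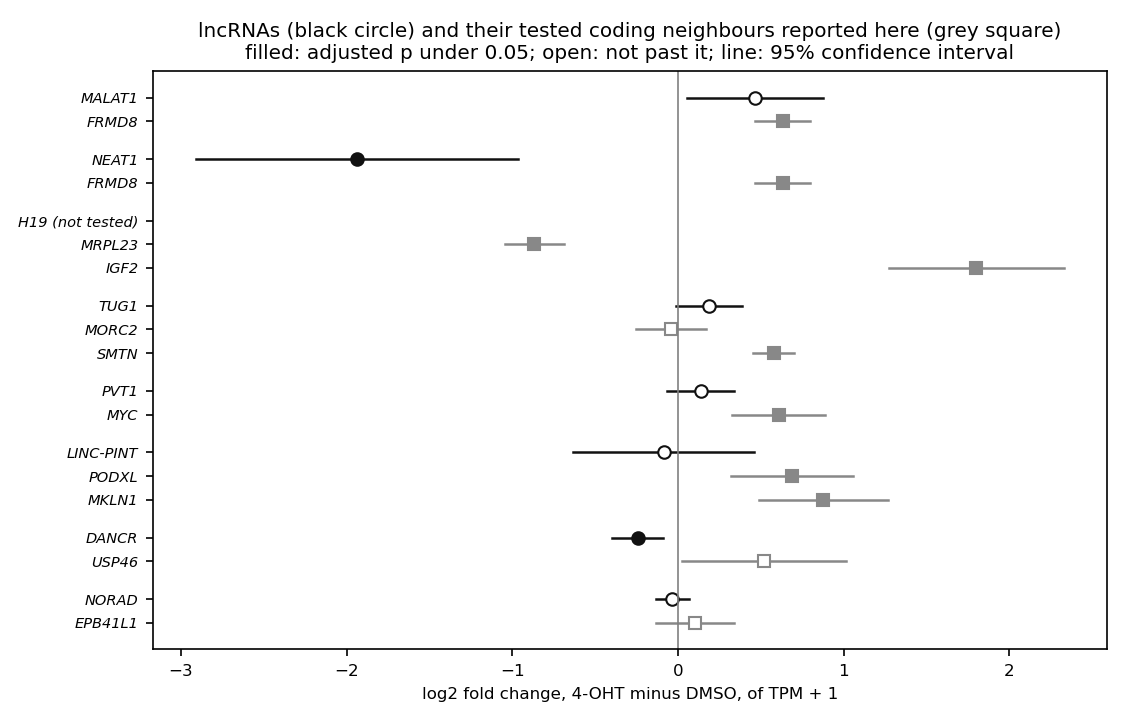
Log2 fold change of TPM + 1 (horizontal axis, 4-OHT minus DMSO) of 8 lncRNAs (black circles; H19 has a label only) and of their tested protein-coding neighbours reported here (grey squares), with 95% confidence intervals as lines; filled symbols passed an adjusted p of 0.05. FRMD8 (0.63) lies to the right beside NEAT1 at -1.94, IGF2 lies at 1.80 beside an H19 that was too low to test, and MYC (0.61) lies to the right of PVT1 (0.14).

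NORAD, on the minus strand of chromosome 20 at 36045622 to 36050960, is 1 exon of 5339 nt in its single transcript. It stood at 160.2, 159.8 and 165 TPM in 4-OHT and at 160.3, 172 and 165 TPM in DMSO. The groups overlapped. The means were 162 ± 2.65 and 166 ± 5.70 TPM. The log2 fold change was -0.04 with a 95% interval of -0.13 to 0.06 (SE 0.04, adjusted p = 0.520, limma), so on the deposited scale a change beyond those bounds lies outside the interval. It was 0.08 after ratio scaling (adjusted p = 0.124). NORAD thus had the narrowest interval of the 9 members.

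PUMILIO proteins bind the letters TGTANATA (with T for U), and NORAD carries many copies. The motif, searched for on the transcript strand only, occurred 15 times in the 5339 nt, which is 2.81 per kb. Among 3863 GENCODE 29 transcripts of 5000 to 6000 nt the median was 0, and 3 had at least 15, with that of NORAD itself among the 3. At least 1 match stood in 10.1% of all 206694 transcripts. The longest transcripts of the other members had 6 matches (NEAT1), 2 (TUG1) and 1 (MEG3), and the remaining 6 had 0. The first 6 sites of NORAD are shown with 5 bases on each side and the match in capitals (GRCh38, chromosome 20, minus strand).
NORAD site 1: gcctgTGTATATAatatg
NORAD site 2: tactgTGTATATAgttga
NORAD site 3: catttTGTAAATAccttt
NORAD site 4: atctgTGTATATAgtgta
NORAD site 5: tatagTGTACATAaagga
NORAD site 6: cacttTGTAAATAtcttt
These sites begin at bases 761, 1140, 1241, 1442, 1451 and 1825 of the transcript, so the fourth and the fifth lie almost side by side.

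Of the proteins bound by NORAD, 8 listed and 8 tested, 5 fell and 2 rose, with a median of -0.31 (all tested genes: 29.9% lower, 19.8% higher). The count that rose was 1 when 4-OHT replicate 2 or 3 or DMSO replicate 2 or 3 was left out. PUM2, a PUMILIO protein, was at 26.3 ± 2.44 TPM in 4-OHT and 25.2 ± 0.649 TPM in DMSO, and did not pass (0.06, adjusted p = 0.575). KHDRBS1, an RNA-binding signalling protein, fell from 130.2 ± 39.9 to 74.5 ± 0.741 TPM (-0.76, a call lost when genes of any level were tested). RBMX, an RNA-binding protein of the nucleus, fell from 183 ± 27.6 to 109 ± 4.03 TPM (-0.72), and ALYREF, an mRNA export adaptor, fell from 124 ± 7.57 to 76.0 ± 5.84 TPM (-0.70).

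EPB41L1, the cytoskeletal gene beside NORAD, did not pass (0.10, adjusted p = 0.431, limma), and CNBD2 on the other side averaged 0.142 TPM in 4-OHT.

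Of 41 other characterised lncRNAs, 39 were in the table and 27 were tested. In this list 8 fell and 5 rose, with a median of -0.24, where 29.9% of all tested genes were lower and 19.8% higher. PURPL, a p53-induced RNA, rose from 4.10 ± 0.621 to 12.01 ± 2.80 TPM (log2 fold change 1.34, adjusted p = 0.000661). HOTTIP, transcribed at the end of the HOXA cluster, fell from 1.87 ± 0.670 to 0.328 ± 0.317 TPM (-1.11, a call lost when genes of any level were tested), and MIR99AHG, the host of a microRNA cluster, fell from 2.07 ± 0.645 to 0.442 ± 0.268 TPM (-1.08). CYTOR, named after its values were seen, was the most abundant of them at 309 ± 17.5 TPM in 4-OHT and 171 ± 7.27 TPM in DMSO, and rose (0.85, adjusted p = 1.96e-05).

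MALAT1 and the long form of NEAT1 are known to lack a poly(A) tail at their mature ends. Other RNAs of that kind were therefore read as a list. The selection of RNA before library construction is not given in the sources used here. Of 23 listed, 12 were tested, 0 fell and 3 rose (all tested genes: 29.9% lower, 19.8% higher). At an unadjusted p under 0.05 there were also 0 lower and 3 higher, by limma. The list's median was nevertheless below 0, at -0.31. Without 4-OHT replicate 2, 2 fell, and without DMSO replicate 1, 1 fell. The 3 were the histone genes HIST1H2BK (228 ± 11.5 against 91.7 ± 4.51 TPM, log2 fold change 1.31), HIST1H2AC (114 ± 5.79 against 55.9 ± 0.768 TPM, 1.01) and HIST1H1C (52.8 ± 3.24 against 45.0 ± 2.02 TPM, 0.22, a call lost in 6 of the 14 alternatives). These histone genes are known to make polyadenylated transcripts as well. RMRP and SCARNA2 were listed at 0 in every library, and RN7SK was at 4.64 TPM in 4-OHT and 9.63 TPM in DMSO and did not pass (adjusted p = 0.128). RN7SL1, RN7SL2, RPPH1 and SCARNA13 had log2 fold changes of -0.54, -0.95, -0.69 and -0.51, and none of these 4 passed. RN7SL3 and HIST2H2AC, at -0.22 and -0.39, did not pass either. SNORA73A and SNORA73B lay above 0, at 0.26 and 1.19, and did not pass. These RNAs were named after their values were seen.

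**Figure D4:**
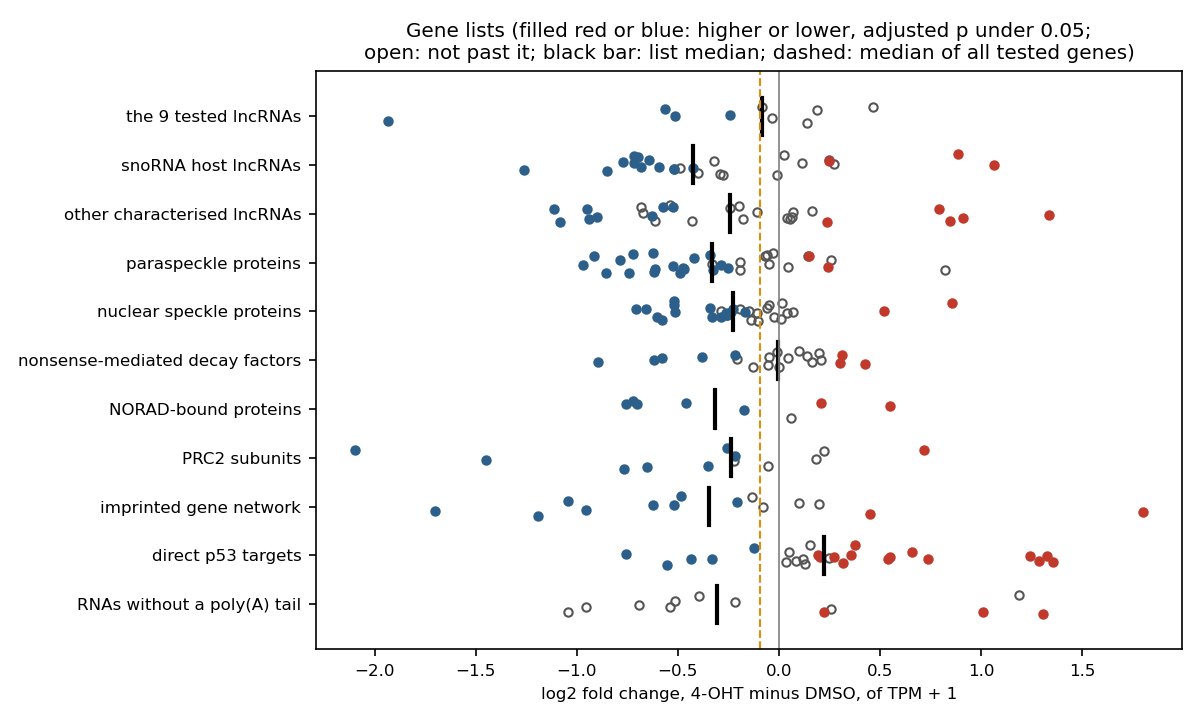
Log2 fold change of TPM + 1 (horizontal axis, 4-OHT minus DMSO) of every tested gene of the 9 lncRNAs and the 10 gene lists, each a point, filled where the adjusted p was under 0.05; black bars are list medians and the dashed line is the median of all tested genes, -0.09. The median of the 9 lncRNAs lies at -0.09, that of the snoRNA hosts at -0.42, that of the paraspeckle proteins at -0.33 and that of the p53 targets at 0.22.

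The genes whose pattern over the 6 libraries was most like that of each member were found among 12498 tested genes by the root mean square difference of log2(TPM + 1), each gene centred on its own mean. LSM4, a subunit of the ring that binds U6 RNA and the ends of decaying mRNA, was nearest to NEAT1 at a difference of 0.26. It stood at 40.4, 38.8 and 38.1 TPM in 4-OHT and at 181, 55.2 and 177 TPM in DMSO, with DMSO replicate 2 again low. MIR3652 followed NEAT1 at 0.34. M6PR, the mannose 6-phosphate receptor that carries lysosomal enzymes, was nearest to MALAT1 at 0.07, with 128 TPM in DMSO replicate 2 against 89.0 and 82.1 TPM in DMSO replicates 1 and 3. WDR7 followed MALAT1 at 0.10. These genes were chosen for their likeness, which is a description only.

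For the other members the genes were as follows, by the same measure. GAS5 was nearest to SUV39H2, a histone H3 lysine methyltransferase, at 0.03 and to BLOC1S1 at 0.03. MEG3 was nearest to RTEL1, a telomere helicase, at 0.05 and to TTLL1 at 0.07. DANCR was nearest to GLUD1, the mitochondrial glutamate dehydrogenase, at 0.02 and to RILPL2 at 0.03. TUG1 was nearest to SPTAN1, a spectrin of the cell cortex, at 0.03 and to CLIP1 at 0.03. For PVT1 these were ZRANB2 at 0.02 and GLB1, the lysosomal beta-galactosidase, at 0.03. For LINC-PINT they were LIMD2 at 0.09 and ZDHHC20 at 0.10, and for NORAD CHMP1A and DAAM2, both at 0.02. Members that differ little over the libraries are near to many genes by this measure.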

How the data were processed

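The values are TPM per gene symbol, made and deposited by the authors for 3 4-OHT and 3 DMSO libraries. The submitters' processing notes name the trimmer Trim Galore 0.6.6, the aligner STAR, the assembler StringTie and the build GRCh38. The gene annotation, the strand setting and how RNA was selected are not given in the sources used. Per the labels' protocols, RNA was taken up in TRIzol and 1 µg went into each library, made with the KAPA RNA HyperPrep kit. In the column of DMSO replicate 3, also TPM as deposited by the authors, 1 value lay just under 0 and was set to 0. TPM keep no read depth, which is unknown, and no limit of detection is given.

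The comparison used limma 3.58.1 (R 4.3.3), with lmFit and then eBayes with its trend option, on log2(TPM + 1) of genes averaging 1 TPM or more, 2-sided, over all 6 libraries without covariates, with Benjamini-Hochberg adjustment over all 15272 genes tested and a threshold of 0.05. The fit was tested on simulated data with known changes. The members and gene lists were chosen with earlier results of these data known. Named genes were the members, HRAS and ESR1, the members' neighbours in GENCODE 29, the 3 largest changes past the threshold of each list, SFPQ, NONO, EZH2 and PUM2 whatever their test, and the 2 tested genes most like each member, leaving out clone names, pseudogenes and unnamed loci. Some genes that this rule names are not reported here. As alternatives the pseudocount, filter, scaling, variance trend, a replicate block and each library left out in turn were tried, 14 in all. Python 3.11.15, pandas 2.3.3, numpy 2.4.6 and matplotlib 3.10.9 made the tables and plots.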

Additional observations from a re-analysis of the deposited data

How the results depend on the processing

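No member reversed a call under any of the 14 alternatives, and GAS5 kept its call under all of them. The number of members that rose was 0, and it became 3 under median-of-ratios scaling (MALAT1, TUG1 and PVT1) and 1 without DMSO replicate 2 (MALAT1), so leaving out a library gave 0 to 1. The number that fell was 4, and it became 2 with no filter on low values, where NEAT1 and MEG3 lost their calls among 36814 genes tested; leaving out a library gave 3 to 4, with DANCR lost without 4-OHT replicate 1. Over all genes, leaving out a library gave 2620 to 2755 higher and 3903 to 4180 lower, against 3018 and 4561. With no filter, the listed genes that rose became 0 of the paraspeckle proteins, 1 of the imprinted genes and 1 of the NORAD-bound proteins, and those that fell became 5 of the other lncRNAs (also 5 with a filter at 5 TPM) and 3 of the p53 targets. Without the variance trend 1 paraspeckle and 1 NORAD-bound protein rose, and with quantile normalization 2 PRC2 subunits rose. The cause of the shift between scalings was not tested.

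The labels do not say whether the replicate numbers pair the libraries. Deviations of same-numbered libraries from their group means correlated at 0.0475, 0.00549 and 0.00664. Those of libraries with different numbers correlated at -0.0573 to 0.0497. With 3 libraries in each group these values cannot settle whether the libraries were paired. With the replicate number as a block, 2819 genes were higher and 4246 lower, the members that fell were 4 and those that rose were 0. With it 0 paraspeckle proteins and 1 NORAD-bound protein rose, and 2 of the RNAs without a poly(A) tail fell. The block ended the calls of GAS5-AS1 and HIST1H1C among the genes named in the text from the lists and neighbours, and those of RILPL2 and WDR7 among the genes most like a member. Depth cannot be judged from TPM, so H19 and the microRNA precursors near 0 carry no limit of detection.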
